A study of Homo sapiens with 3 samples.

Results

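LSD1, the histone demethylase encoded by KDM1A, was followed together with 9 genes for proteins that it works with: the CoREST scaffolds RCOR1 and RCOR3, the deacetylases HDAC1 and HDAC2, the DNA-binding repressors GFI1 and GFI1B, and the accessory subunits HMG20B, PHF21A and ZMYM2. The rule takes the 10 genes by their place in this complex, each as the row of 1 UniProt accession in a table of read counts. It uses no measured value, although it was drawn up with earlier results of these data known. Of the 10 accessions, 9 had a row among the 213543 rows of the table, and 5 of these reached 10 counts in at least 1 library, a level that 9609 rows reached in all. The files give accessions without gene names, so the names used here come from the UniProt entries. The cells were THP-1, a monocytic line from a human leukemia with the MLL-AF9 fusion, and RNA-seq compared untreated cells (Control, 0 h) with cells given 0.2 µM GSK-LSD1, an inhibitor of LSD1, for 8 h or 24 h. All cells came from this 1 line, each time point was 1 library made after removal of ribosomal RNA, and no vehicle or time-matched control entered the comparisons.

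LSD1 removes methyl groups from lysine 4 of histone H3, a mark of active promoters and enhancers. RCOR1 holds it on chromatin next to HDAC1 or HDAC2, which remove acetyl groups, so the complex turns genes off. GFI1 and its paralog GFI1B recruit the complex to DNA through a short N-terminal domain named SNAG, and in blood cells both steer myeloid and erythroid differentiation. GSK-LSD1 binds the active site covalently through the FAD cofactor, and inhibitors of this class also release LSD1 from GFI1.

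GFI1 binds DNA whose core letters are AATC (GATT on the other strand) and is known to repress its own gene. The 250 bases before the start of transcription are printed for the 3 members that the results turn on, as RefSeq gives them on GRCh38.p14, 5′ to 3′ along the gene's strand, and capitals mark AATC or GATT. The GFI1 window spans chr1:92486926-92487175 on the reverse strand, the RCOR1 window chr14:102592399-102592648 on the forward strand and the ZMYM2 window chr13:19958477-19958726 on the forward strand.
GFI1: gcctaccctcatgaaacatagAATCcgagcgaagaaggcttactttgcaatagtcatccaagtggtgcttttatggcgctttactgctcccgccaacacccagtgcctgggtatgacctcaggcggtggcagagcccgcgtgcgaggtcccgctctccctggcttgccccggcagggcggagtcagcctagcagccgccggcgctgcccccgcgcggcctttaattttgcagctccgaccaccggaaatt
RCOR1: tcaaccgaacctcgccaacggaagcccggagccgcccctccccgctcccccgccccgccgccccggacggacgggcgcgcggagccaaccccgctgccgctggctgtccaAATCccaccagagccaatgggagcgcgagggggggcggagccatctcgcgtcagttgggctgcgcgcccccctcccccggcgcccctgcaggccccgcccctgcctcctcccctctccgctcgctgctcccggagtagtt
ZMYM2: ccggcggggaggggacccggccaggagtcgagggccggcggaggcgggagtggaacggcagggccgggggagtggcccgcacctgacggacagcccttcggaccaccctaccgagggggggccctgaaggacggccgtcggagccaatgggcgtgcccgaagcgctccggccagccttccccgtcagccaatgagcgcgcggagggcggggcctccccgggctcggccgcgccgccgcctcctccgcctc
The GFI1 window held the letters once, 229 bases before the start, the RCOR1 window held them once, 140 bases before it, and the ZMYM2 window did not hold them. All 10 genes had a RefSeq window, and 6 of these held the letters on either strand. The letters were also present in 22752 of 35116 promoter windows of this length (64.8%). A match of these letters is a description of the window and not a measured binding site. RefSeq lists 3 windows each for GFI1 and ZMYM2, of which 2 held the letters for either gene, and the printed ones are those nearest to the gene's start in GENCODE v44.

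Library totals were 1475938 counts in untreated cells, 1310912 after 8 h and 1444011 after 24 h. A count of 0 allows up to 3 counts, which is 1.95, 2.34 and 2.11 CPM in that order, where CPM is the count scaled to a fixed library size after TMM scaling. The intervals of ratios and shares given here are exact 95% intervals, and these and the limit of 3 counts cover counting error only. The sources used here name no marking of PCR copies of a molecule. If copies were counted more than once, the intervals are too narrow even for counting error. The intervals say nothing of the spread between cultures, which 1 library per time point cannot give. No p-value was therefore computed, and each ratio compares libraries. The cells carried counts of the leukocyte gene PTPRC (617, 522 and 521), and LYZ, encoding lysozyme, had 655, 747 and 1773. Of the 7 monocytic markers, CD33 and CSF1R had 0 counts under their accessions in every library. Among markers of other cell types, CD3E, EPCAM and HBB were at 0 throughout, and COL1A1 had 0, 4 and 2 counts. The summed level of the 7 monocytic markers, 4 of them with at least 10 counts, was 929.5, 1157 and 1929.9 CPM over time. Most of this rise came from LYZ, at 426, 583 and 1248 CPM. ITGAM and SPI1 were also higher at 24 h than at 0 h, PTPRC was at 402, 408 and 367 CPM, and CD14 had 0, 5 and 6 counts. The part of this shift in the results for the members was not tested.

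GFI1 had the most counts among the members' accession rows, which does not rank the genes themselves by level. Its row (Q99684; chr1:92473043-92486925 of GRCh38, reverse strand) held 1558 counts in untreated cells, 1911 after 8 h and 1827 after 24 h, or 1014, 1492 and 1286 CPM. Both treated libraries lay above the untreated one, and the 8 h library was the highest. GFI1 was 1.47-fold higher at 8 h than at 0 h (interval 1.38 to 1.57), a log2 ratio of 0.56 (0.46 to 0.65). At 24 h it was 1.27-fold higher than at 0 h (1.18 to 1.36), a log2 ratio of 0.34 (0.24 to 0.44). Between 8 h and 24 h it was lower at the later time, with a log2 ratio of -0.21 (-0.31 to -0.12). The counting intervals of the 3 levels did not overlap. Fewer cells of a type and less RNA per cell cannot be told apart in these bulk samples.

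The higher level of GFI1 stayed under the fold used for calls. A row was called changed where its log2 CPM (prior count of 2) differed by more than 1 between 2 libraries, and GFI1 did not pass that fold in any comparison. GFI1 was also set among the 235 rows with at least 1000 counts in a library, a level chosen after its values were seen. Of these rows, GFI1 included, 23 (9.79%) stood above 0 h by as much as GFI1 or more at 8 h. After 24 h, 54 (23.0%) did so, again with GFI1 included. The median log2 difference of these 235 rows from untreated cells was 0.12 after 8 h and 0.09 after 24 h. Between the treated libraries it was -0.06, beside -0.21 for GFI1. A correction for such a trend with expression level moved the log2 ratio of GFI1 to 0.39 at 8 h and 0.24 at 24 h. That between the treated libraries became -0.16.

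RCOR1, the scaffold that ties LSD1 to the deacetylases, held nearly the same level in each library. Its row (Q9UKL0; chr14:102592649-102730561, forward strand) had 841, 758 and 825 counts in order of time, or 547, 592 and 581 CPM. The log2 ratio to untreated cells was 0.11 after 8 h (-0.03 to 0.26) and 0.09 after 24 h (-0.05 to 0.23), and that between the treated libraries was -0.03 (-0.17 to 0.12). All 3 intervals held 0, and the upper ends bounded any rise that counting error could hide at 0.26 on the log2 scale.

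RCOR3, a paralog of RCOR1, had few counts. Its row (Q9P2K3; chr1:211258377-211316385, forward strand) held 46 counts in untreated cells and then 30 and 29, or 29.9, 23.4 and 20.4 CPM. The untreated library was the highest, but the intervals of the levels overlapped. The log2 ratios to untreated cells, -0.35 after 8 h (-1.07 to 0.34) and -0.55 after 24 h (-1.28 to 0.15), both held 0 within their intervals. RCOR1 made up 94.8% of the counts of the 2 scaffolds in untreated cells (93.1% to 96.2%), 96.2% after 8 h (94.6% to 97.4%) and 96.6% after 24 h (95.2% to 97.7%), and these intervals overlapped as well. With transcript rows added, the share was 92.1% at 0 h and 92.9% at 8 h, under the intervals above. Per kilobase of the canonical transcript, RCOR1 stood at 95.2, 103 and 101 CPM and RCOR3 at 6.69, 5.24 and 4.56 CPM. GENCODE v44 lists 1 coding transcript for RCOR1 and 8 for RCOR3, and the limit of accession rows set out below holds for this comparison.

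**Figure D1:**
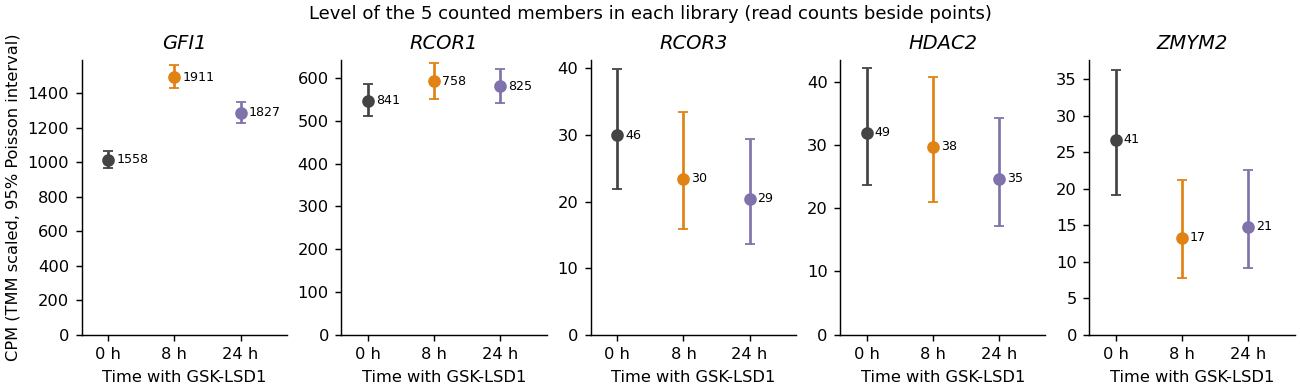
Level of the 5 members with at least 10 counts, in CPM scaled by TMM, in the 0 h, 8 h and 24 h libraries, 1 panel a gene with its own axis from 0. Points are single libraries, bars are exact 95% Poisson intervals, and the numbers beside the points are read counts. GFI1 is higher at 8 h and 24 h than at 0 h with bars apart, RCOR1 is level, and the wide bars of RCOR3, HDAC2 and ZMYM2 rest on 17 to 49 counts.

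Of the deacetylases, only HDAC2 could be followed by its accession. The table used here had no row under the HDAC1 accession Q13547, so no share of HDAC1 among both enzymes was computed. The HDAC2 row (Q92769; chr6:113933028-114011308, reverse strand) had 49, 38 and 35 counts in order of time, or 31.9, 29.7 and 24.6 CPM. The 3 levels overlapped in their intervals. The log2 ratio to untreated cells was -0.10 after 8 h (-0.75 to 0.54) and -0.37 after 24 h (-1.04 to 0.28), and the treated libraries differed by -0.27 (-0.97 to 0.43).

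ZMYM2, a zinc-finger subunit found with LSD1 and CoREST, was the one member whose accession row was lower in treated than in untreated cells beyond counting error. Its row (Q9UBW7; chr13:19958677-20091829, forward strand) had 41 counts in untreated cells, 17 after 8 h and 21 after 24 h, or 26.7, 13.3 and 14.8 CPM. Both treated libraries were below the untreated one and close to each other. The log2 ratio to untreated cells was -1.01 after 8 h (-1.92 to -0.16) and -0.85 after 24 h (-1.68 to -0.06), and that of the later to the earlier treated library was 0.16 (-0.84 to 1.17). With the prior count of 2, the differences in log2 CPM were -0.94 and -0.79, short of the fold of 1, and at these counts the intervals reach from nearly no change to more than a 2-fold drop.

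The other 4 members with a row had almost no reads under their accession. KDM1A itself (O60341; chr1:23019443-23083689, forward strand) had 1, 0 and 1 counts in order of time. PHF21A (Q96BD5; chr11:45929319-46121454, reverse strand), whose PHD finger reads histone H3 without methylation at lysine 4, had 1, 4 and 2 counts. GFI1B (Q5VTD9; chr9:132944000-132991687, forward strand) and HMG20B (Q9P0W2; chr19:3572777-3579088, forward strand), an HMG-box subunit of the complex, had 0 counts in every library. A change of these 4 rows was not detectable at this depth.

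A row near 0 does not measure the gene. KDM1A is used in most dividing cells, and among 22 genes of related complexes and myeloid factors, 11 also had at most 3 counts in each library under their accession, including CHD4 with 0 and HDAC3 with 0, both broadly used chromatin regulators. The sources used here do not give the counting tool or how reads shared between rows were treated. Over the members and related genes, the 15 rows with at most 9 counts in each library belonged to genes with a median of 8 protein-coding transcripts in GENCODE v44 (2 to 32), and the 16 counted ones to genes with a median of 5.5 (1 to 13). KDM1A has 19 such transcripts and PHF21A 14, against 1 for RCOR1 and 7 for GFI1, while HDAC2 with 12 was counted. Whether the number of transcripts set these counts was not tested, and levels of different members are given here only with that limit.

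**Figure D2:**
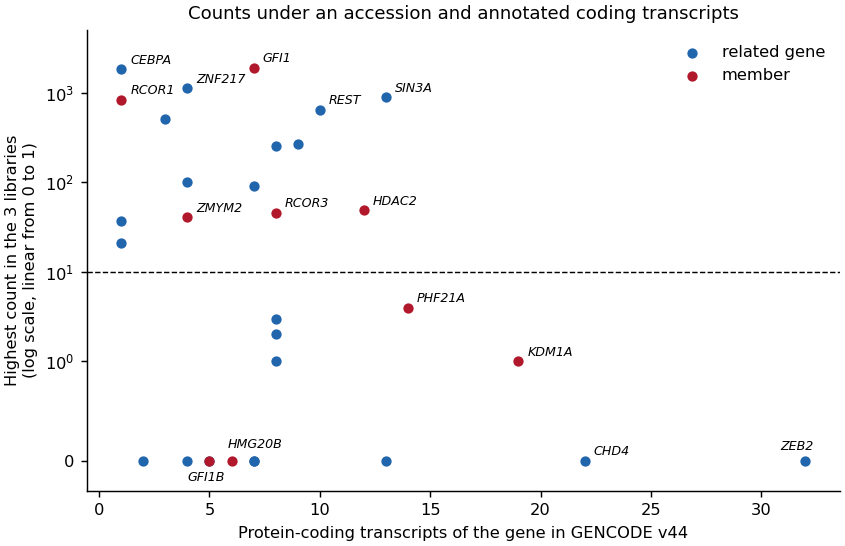
Highest count of each accession row over the 3 libraries (log axis, linear from 0 to 1) against the number of protein-coding transcripts that GENCODE v44 lists for the gene, for members (red) and related genes (blue). The dashed line marks 10 counts. KDM1A with 19 and PHF21A with 14 transcripts lie below the line and RCOR1 with 1 and GFI1 with 7 above it, but HDAC2 with 12 is also above it, and GFI1B with 5 and HMG20B with 6 are at 0.

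The table also lists Ensembl transcripts, and for the members most of those with reads were retained-intron forms, RNAs that keep part of an intron and are not annotated to encode protein. Exons of these transcripts lie partly within those of the coding ones, so their reads cannot be wholly assigned to either. The members had 30 retained-intron rows, of which 14, from 7 genes, held a count. Together they held 138 counts in untreated cells, 73 after 8 h and 103 after 24 h. The sum was lowest in the 8 h library. Its log2 ratio to untreated cells was -0.66 after 8 h (-1.09 to -0.24) and -0.31 after 24 h (-0.69 to 0.07), and the later treated library stood 0.35 above the earlier one (-0.10 to 0.80).

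The ZMYM2 retained-intron transcript ENST00000382883.7 (chr13:20024394-20086691, 5445 bases in 18 exons, 40.9% of them outside coding exons) moved most at 8 h. It had 28 counts in untreated cells, 6 after 8 h and 18 after 24 h. Its log2 ratio to untreated cells was -1.96 after 8 h (-3.52 to -0.66) and -0.52 after 24 h (-1.46 to 0.38), and it was higher in the later treated library by 1.44 (0.04 to 3.06). The 8 h library was therefore low in both the accession row and this transcript, while at 24 h only the accession row was below 0 h beyond counting error. With its accession row and Ensembl transcript rows added, ZMYM2 had 71, 27 and 44 counts. The log2 ratios of this sum to untreated cells were -1.13 after 8 h (-1.83 to -0.47) and -0.58 after 24 h (-1.15 to -0.01). Rows that the members may have under other accessions were not searched for, so such sums may leave out reads of the gene.

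HDAC1 was seen only through such transcripts. ENST00000476391.5 (chr1:32329480-32333635, forward strand, 2409 bases in 7 exons, 46.0% outside coding exons) had 25, 9 and 12 counts in order of time. The log2 ratio to untreated cells was -1.21 after 8 h (-2.49 to -0.06) and -0.95 after 24 h (-2.07 to 0.10), so only the 8 h interval lay below 0. A second HDAC1 retained-intron row, ENST00000471488.1, held 0, 1 and 1 counts, and with both rows added (25, 10 and 13 counts) the log2 ratio after 8 h was -1.06 and its interval held 0 (-2.28 to 0.05). The HDAC2 transcript ENST00000523334.1 (4810 bases, 69.9% outside coding exons) had 20, 10 and 13 counts, with intervals that held 0 in each comparison. KDM1A had 2 retained-intron rows with reads, ENST00000602503.1 with 7, 3 and 7 counts and ENST00000481879.1 with 2, 1 and 0. With its accession row these gave 10, 4 and 8 counts for KDM1A, too few to show a change of the inhibitor's target.

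The RCOR3 transcript ENST00000486666.5 (4086 bases, 64.2% outside coding exons) differed from these in its timing, with 22 counts in untreated cells, 21 after 8 h and 9 after 24 h. It was level at 8 h and lower at 24 h, by a log2 ratio of -1.18 against 0 h and -1.37 against 8 h (-2.68 to -0.18). Its interval at 24 h against 0 h reached from -2.48 to just under 0. The accession row and Ensembl transcript rows of RCOR3 together had 72, 58 and 40 counts. The log2 ratio of this sum to untreated cells was -0.05 after 8 h (-0.57 to 0.47) and -0.73 after 24 h (-1.33 to -0.16). The PHF21A transcript ENST00000527401.5 (8954 bases, 28.9% outside coding exons) had 21, 18 and 28 counts, and the 1 coding GFI1 transcript with a row of its own, ENST00000483490.1 (chr1:92482990-92484682, 508 bases), had 24, 15 and 28. The intervals of both held 0 in every comparison, and the count of the GFI1 transcript was lowest in the 8 h library, where the accession row of GFI1 was highest.

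**Figure D3:**
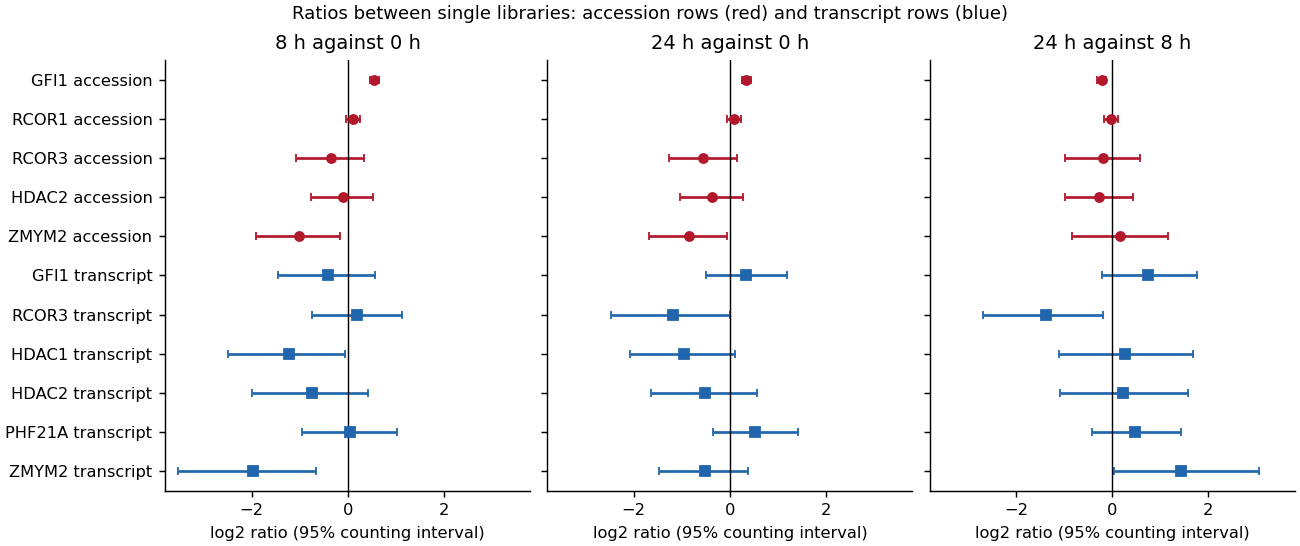
Log2 ratios of counts (TMM scaled) between libraries for the accession rows (red circles) and the transcript rows with at least 10 counts (blue squares) of the members, 1 panel a comparison, with exact 95% counting intervals. Against untreated cells GFI1 lies above 0 after 8 h (0.56) and after 24 h (0.34) with short bars, and both ZMYM2 rows lie below 0 at 8 h (-1.01 and -1.96).

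Ratios of 2 members within a library do not depend on library totals or their scaling factors. The ratios of GFI1 or ZMYM2 to other members were not planned and restate the differences of their rows, so they add no separate support. A trend with expression level does not cancel between a high and a low row. At 8 h against 0 h it was 0.16 at GFI1, 0.11 at RCOR1 and -0.01 at HDAC2 and RCOR3. At 24 h against 0 h it was 0.10 at GFI1, 0.05 at RCOR1 and -0.01 at HDAC2. These ratios were not corrected for it. For GFI1 to HDAC2 the trend at GFI1 alone was larger than the lower ends of 0.01 after 8 h and 0.05 after 24 h. A rise of that pair beyond the trend was therefore not shown. The ratio of GFI1 to RCOR1 counts was 1.85 in untreated cells, 2.52 after 8 h and 2.21 after 24 h. On the log2 scale it was higher than in untreated cells by 0.44 after 8 h (0.27 to 0.62) and by 0.26 after 24 h (0.09 to 0.43), and it changed by -0.19 between the treated libraries (-0.36 to -0.01). The log2 ratio of GFI1 to RCOR3 was higher by 0.91 after 8 h (0.21 to 1.63) and by 0.90 after 24 h (0.19 to 1.63). With transcript rows added RCOR3 was level at 8 h (log2 ratio -0.05), so the first value holds for the accession rows only. The log2 ratio of GFI1 to HDAC2 was higher by 0.66 after 8 h (0.01 to 1.32) and by 0.72 after 24 h (0.05 to 1.39). That of ZMYM2 to RCOR1 changed by -1.12 after 8 h (-2.04 to -0.26) and by -0.94 after 24 h (-1.78 to -0.13). Each of these pairs held GFI1 or ZMYM2, the members whose accession rows differed from untreated cells beyond counting error. The shares of RCOR1 and RCOR3, given above, had overlapping intervals across the 3 libraries, and other pairs were not computed.

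The 5 counted members were then set beside all 9609 counted rows. None of these accession rows passed the fold in either direction in any comparison, but with total counts in place of TMM scaling ZMYM2 passed it downwards at 8 h. Transcript rows with at least 10 counts in a library were 1 each for GFI1, HDAC1, HDAC2, PHF21A, RCOR3 and ZMYM2. Those of ZMYM2 (28 to 6 counts) and HDAC1 (25 to 9) were past the fold downwards after 8 h, and that of RCOR3 (22 to 9) after 24 h. Between the treated libraries RCOR3 was past it downwards (21 to 9) and ZMYM2 upwards (6 to 18). These rows are too few and too low in counts to read against shares of all rows. By the fold rule 4.51% of all rows were higher and 6.02% lower after 8 h than in untreated cells. After 24 h 6.19% were higher and 5.58% lower than in untreated cells, and between the treated libraries 4.03% were higher and 1.97% lower at the later time. By the second rule, a counting interval that did not hold 0, 1 of 5 members was above (GFI1) and 1 of 5 below (ZMYM2) at 8 h against 0 h, beside 11.7% and 9.71% of all rows. The same held at 24 h against 0 h, again with GFI1 above and ZMYM2 below, beside 13.0% above and 12.6% below. At 24 h against 8 h, 0 of 5 members were above and 1 of 5 was below (GFI1), beside 4.87% and 5.58%. With 5 members a single row is 1 in 5 of the list, so these counts are too few to read against those shares. The median log2 difference of the members from untreated cells was -0.10 after 8 h and -0.35 after 24 h, and -0.19 between the treated libraries, beside -0.01, -0.01 and 0.00 over all rows. A filter of 50 counts left GFI1 and RCOR1 alone and turned the direction of the first 2 medians, to 0.33 and 0.21, no filter gave 0 for both, and the other 3 members rest on 17 to 49 counts. The first 2 comparisons share the 0 h library, so their values are not independent.

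**Figure D4:**
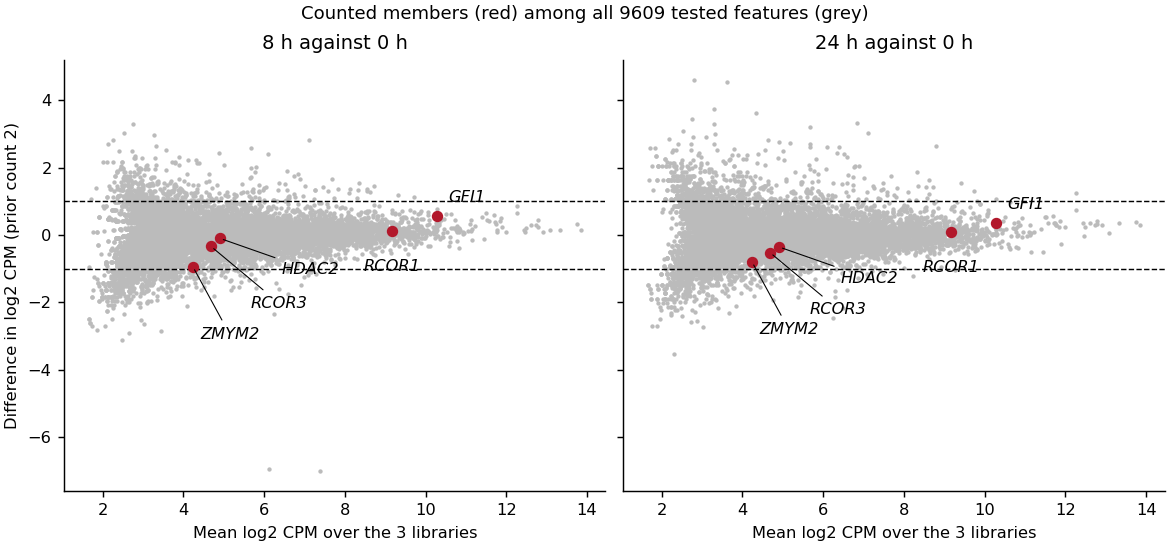
Difference in log2 CPM (prior count of 2) of each treated library from the 0 h library, plotted against the mean log2 CPM over the 3 libraries, for all 9609 counted rows (grey) and the 5 counted members (red). Dashed lines mark a difference of 1 in either direction, and all 5 members lie between them, with GFI1 highest at 0.56 and 0.34 and ZMYM2 lowest at -0.94 and -0.79.

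Of the 22 related genes, 11 reached 10 counts and none of these passed the fold. The list held other CoREST and CtBP subunits and DNA-binding partners, genes of other HDAC1 and HDAC2 complexes, and the myeloid factors SPI1 and CEBPA. By the counting interval, 3 of the 11 were above and 1 below untreated cells after 8 h, beside 11.7% and 9.71% of all rows. After 24 h 3 were above and 3 below, beside 13.0% and 12.6%. Between the treated libraries 3 were above and 2 below at the later time, beside 4.87% and 5.58%. With 11 genes, picked for their function, these counts are too few to read against those shares. SPI1, encoding PU.1, which GFI1 is known to restrain in myeloid progenitors, had 69, 87 and 102 counts in order of time. It was higher than in untreated cells at both times, by a log2 ratio of 0.60 after 8 h (0.12 to 1.07) and 0.68 after 24 h (0.22 to 1.14). ZNF217, a zinc-finger partner of CoREST and CtBP singled out after its values were seen, had 755, 1030 and 1126 counts, with log2 ratios of 0.71 (0.57 to 0.85) and 0.69 (0.56 to 0.82). CEBPA, the other myeloid factor listed, had 1848, 1716 and 1717 counts, with log2 ratios of 0.16 (0.06 to 0.25) and 0.01 (-0.09 to 0.10) to untreated cells and of -0.15 (-0.25 to -0.05) between the treated libraries. REST, the factor for which CoREST was named, had 645, 492 and 476 counts and was lower at 24 h than at 0 h by a log2 ratio of -0.33 (-0.50 to -0.15). In the same libraries the monocytic marker ITGAM had 87, 120 and 339 counts and LYZ was 2.93-fold higher after 24 h than before treatment, while GFI1 was at its highest after 8 h.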

How the data were processed

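Read counts per feature were deposited by the authors for 3 libraries of THP-1 cells. The sources name ribosomal RNA depletion, the Seq2science workflow with mapping to hg38, and STAR and fastp; which tool counted the reads, on what annotation and strand, and what became of reads shared between features is not given in the sources used here. Columns were assigned to time points by name. Library totals were scaled by TMM factors (1.04, 0.977 and 0.984 at 0 h, 8 h and 24 h) from edgeR 4.0.16 in R 4.3.3, taken over rows with at least 10 counts in a library. Log2 CPM used a prior count of 2. Ratios used no prior count, with Clopper-Pearson 95% intervals. With 1 library per group no test was run. DESeq2 1.42.0 gave alternative size factors. Remaining steps used Python 3.11.15, numpy 2.4.6, pandas 2.3.3, scipy 1.17.1, statsmodels 0.14.6 and matplotlib 3.10.9, and scripts were tested on simulated data. Transcripts, lengths and positions came from GENCODE v44. The members and lists were chosen with earlier results of these data known. Text names all members, their transcripts with at least 10 counts, SPI1, and related genes past the fold at 24 h (none). The KDM1A transcripts, the second HDAC1 transcript, ZNF217, REST, CEBPA, CHD4 and HDAC3 were not covered by that rule and were picked with their values in view. Alternatives were other library sizes, prior counts, filters and thresholds, a loess correction, transcript rows added to accession rows, and coding length. One marker of another cell type is not reported here.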

Additional observations from a re-analysis of the deposited data

How the results depend on the processing

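Under other library sizes (DESeq2 size factors, total counts, total counts without mitochondrial features), a loess correction and accession plus transcript rows, 73 of 75 log2 ratios of members stayed within the main counting interval. The 2 that moved were GFI1 under the loess correction (0.39 at 8 h and 0.24 at 24 h against 0 h). The intervals of RCOR3, HDAC2 and ZMYM2 are wide, so staying within them shows little. With transcript rows added, RCOR3 went from -0.35 to -0.05 at 8 h against 0 h. At 24 h against 0 h it went from -0.55 to -0.73, and the interval of the sum (-1.33 to -0.16) no longer held 0. HDAC2 at 24 h against 8 h went from -0.27 to 0.06. The log2 ratio of GFI1 ranged from 0.39 to 0.56 at 8 h and 0.24 to 0.35 at 24 h, and that of ZMYM2 from -1.13 to -1.0 and -0.93 to -0.58. Of the members past the fold, 0 in each direction, 1 was lower at 8 h against 0 h (ZMYM2) with total counts, with or without mitochondrial features. With no filter 1 was higher at 8 h against 0 h (PHF21A, from 1 to 4 counts). By the counting interval 1 was higher and 1 lower at 8 h and at 24 h against 0 h, and 1 lower at 24 h against 8 h. A filter of 50 counts left GFI1 and RCOR1 alone, with a median of 0.33 at 8 h and 0.21 at 24 h. With transcript rows the RCOR1 share was 92.1% at 0 h and 92.9% at 8 h. Coding lengths from GENCODE v44, chosen after seeing the data in place of the planned RefSeq proteins, changed all 15 levels per kilobase. The planned shares of HDAC1 and GFI1B were not run. No paired analysis was possible because each time point had 1 library. Accession rows of members other than GFI1 and RCOR1 held at most 49 counts, which sets their wide intervals.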
